A study of Mus musculus with 5 samples.

Results

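The matrix proteases, their inhibitors and the enzymes that process and crosslink collagen were followed across 5 groups of mouse livers. Members were chosen by gene name: every array gene named Mmp, Timp, Adamts or Loxl with a number, together with Lox, Reck, Plau, Plat, Plaur, Tgm2, P4ha1, P4ha2 and Plod1 to Plod3. This gave 58 genes of the 28090 gene names on the array, read by 98 probes on 107 spots. The livers came from male C57BL/6J mice, an inbred laboratory strain, aged 25 weeks. Control mice were untreated. HFHFr-F mice ate a high-fat, high-fructose diet for 20 weeks and, per the labels, had severe insulin resistance. HFHFr-N mice ate it for 16 weeks and then normal diet for 4 weeks, and were insulin resistant. HFHFr-FA mice had 16 weeks of the diet and then stayed on it for 4 weeks while given all-trans retinoic acid, and were not insulin resistant, with slight steatosis. HFHFr-NA mice had 16 weeks of the diet, then were given all-trans retinoic acid on normal diet for 4 weeks, and are labelled as recovered. All-trans retinoic acid is the form of vitamin A that binds nuclear retinoic acid receptors. Each group stands on 1 array of RNA that was pooled from 5 mice, so spread between mice was not measured and groups could not be tested against each other. "Higher" and "lower" refer to these pools of whole liver, in which more cells of a type and more RNA per cell cannot be told apart.

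Matrix metalloproteinases (MMPs) are zinc enzymes, most of them secreted as inactive precursors, that cut collagens, other matrix proteins and cell-surface proteins. Tissue inhibitors of metalloproteinases (TIMPs) bind their active sites, and Reck is a membrane-anchored inhibitor. ADAMTS enzymes are secreted relatives that trim the ends of procollagens or cut large proteoglycans. Urokinase, bound to its receptor Plaur, and tissue-type plasminogen activator, encoded by Plat, turn plasminogen into plasmin, which can activate several MMP precursors. Prolyl and lysyl hydroxylases modify collagen chains inside the cell, and lysyl oxidases and transglutaminase 2 crosslink matrix proteins outside it. In injured liver the sources of these enzymes include stellate cells, macrophages, neutrophils and bile duct cells, among others. The balance of proteases and inhibitors is a standard topic in liver fibrosis.

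Of the 8 MMP genes that lie next to each other on chromosome 9, in the mm9 order Mmp13, Mmp12, Mmp3, Mmp1a, Mmp10, Mmp8, Mmp20 and Mmp7, 3 were detected on any array. The promoters of most genes of this cluster and of Plaur hold a short sequence, shown here because Mmp13, Mmp7 and Plaur were at least 2-fold higher under the diet while neighbours with the same sequence were not detected. The letters TGANTCA, with N any base, include the binding sequence of the AP-1 transcription factors. They were searched for on both strands in the 300 bases around each RefSeq start (GRCm38.p6, 250 bases before it and 50 after). They occurred in 8 of the 36 members with a promoter entry (22.2%), against 8.97% of 27025 genes. The 8 were Mmp13, Mmp12, Mmp3, Mmp1a, Mmp10, Mmp20, Mmp7 and Plaur, so that in the chromosome 9 cluster Mmp8 alone lacked them. All but Plaur lie in that cluster, so the 22.2% comes mostly from 1 group of neighbouring genes and does not describe the members at large. Mmp12 and Mmp7 have 2 RefSeq starts each, and the letters were found at 1 of them. Adamts2, Timp1, Timp2, Timp3 and Mmp23, which were also at least 2-fold higher under the diet, did not have them, and Mmp2 and Loxl2 had no promoter entry. The stretches below run on the plus strand from 20 bases before the motif to the base before the start, and capitals mark TGANTCA and the TATA box letters TATAAA, which do not overlap.
Mmp13 (chr9:7272459-7272513, well above background in HFHFr-F and HFHFr-FA): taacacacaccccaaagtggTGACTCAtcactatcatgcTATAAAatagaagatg
Mmp7 (chr9:7692007-7692089, well above background in HFHFr-F, HFHFr-FA and HFHFr-NA): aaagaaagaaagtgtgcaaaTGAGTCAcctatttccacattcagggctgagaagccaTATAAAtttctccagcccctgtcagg
Mmp12 (chr9:7347310-7347373, well above background in HFHFr-F): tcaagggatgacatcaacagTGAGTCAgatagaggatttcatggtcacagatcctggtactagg
Plaur (chr7:24462394-24462482, well above background in all groups): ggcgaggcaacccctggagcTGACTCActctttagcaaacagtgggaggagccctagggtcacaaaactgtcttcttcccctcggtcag
Mmp3 (chr9:7445756-7445821, not well above background on any array): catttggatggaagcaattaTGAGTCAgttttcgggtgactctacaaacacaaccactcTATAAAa
Mmp10 (chr9:7502259-7502341, not well above background on any array): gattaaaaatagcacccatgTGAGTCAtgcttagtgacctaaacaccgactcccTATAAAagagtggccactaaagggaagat
In Mmp13 the motif began 35 bases before the start, the shortest distance among the 8 genes, and in Mmp20, at 95 bases, the longest. The match before the start was TGAATCA in Mmp20 and TGAGTCA or TGACTCA in the other genes. The shares above count any of these. TATAAA was found in 12 of the 36 members (33.3%) against 15.7% of all genes. All 8 MMP genes of the chromosome 9 cluster were among the 12, so this share too comes mostly from neighbouring genes. Position was not required: Mmp12, Mmp8 and P4ha1 had no match in the 250 bases before the start. In Plod1 the match lay 232 bases before it, on the other strand. Exact direct repeats of AGGTCA with the spacings of classical retinoic acid receptor elements, 5 or 2 bases, were found in 0 of the 36 members. They occurred in 3 promoters each of the 32851 searched. Variants of these letters were not searched. Exact repeats are so rare that their absence from the 36 does not show whether these genes have such elements. A match to letters is a description and not a binding site, and TGANTCA was present in genes that were detected and in genes that were not.

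Signals are the scanner software's processed intensities, scaled so that the 75th percentile of each array is 100. Between 46.7% (Control) and 49.4% (HFHFr-FA) of spots were well above background, no spot was saturated, and the lowest scaled signal that counted as detected was 7.35 to 8.63. The HFHFr-FA array was the only one on its slide and the other 4 shared a slide, so in every comparison with HFHFr-FA the slide and the treatment cannot be told apart. Spots of a probe printed 10 times differed by a median SD of 0.0704 to 0.0863 log2 units on 1 array. The error given after ± is the scanner software's own error of a spot, or of the ratio of a pair of spots, and does not cover variation among mice, RNA preparations or arrays. All 6 hepatocyte markers on the array were detected in each group.

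**Figure D1:**
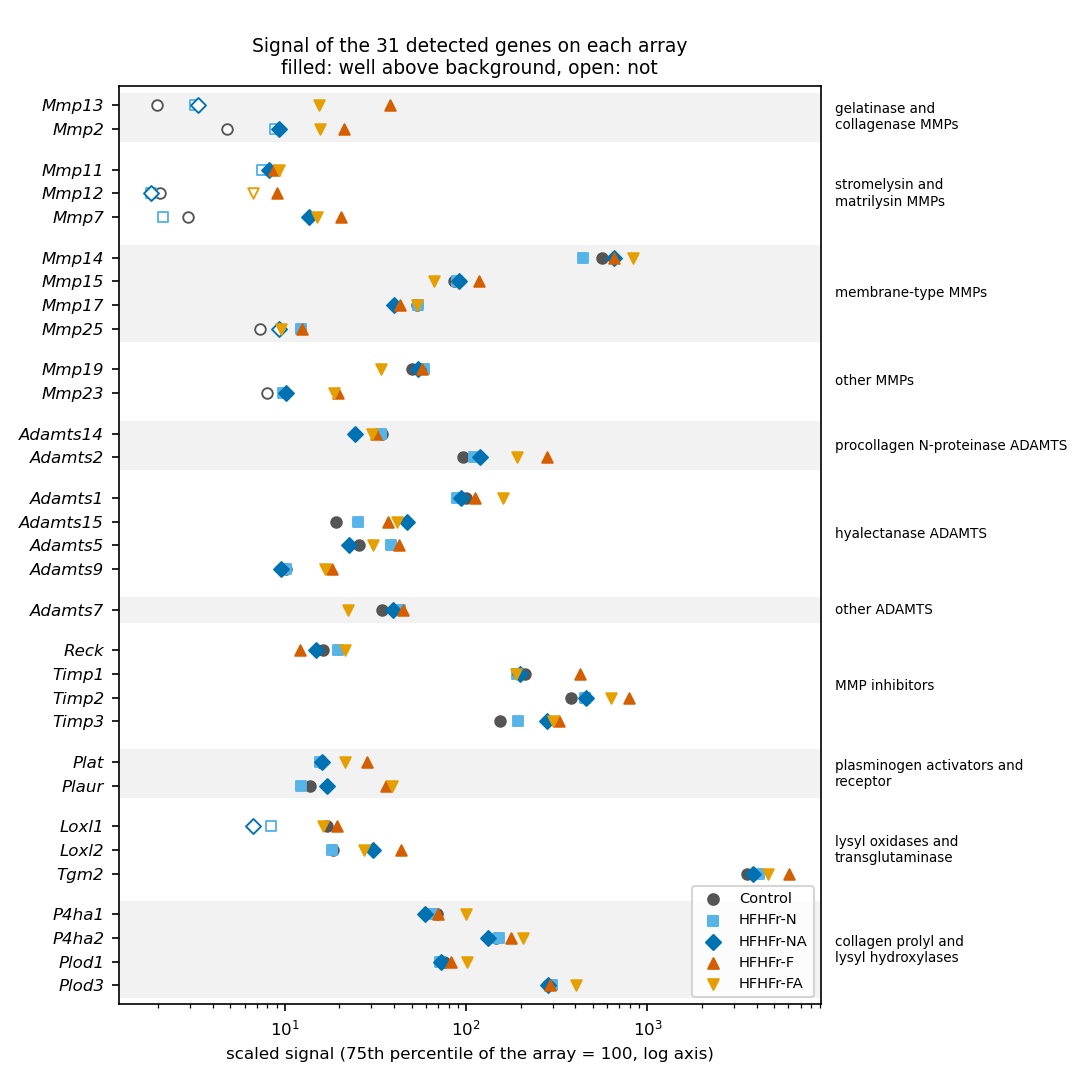
Scaled signal of the 31 detected genes (log axis) on the 5 arrays, 1 row per gene grouped by role, with filled symbols where the probe was well above background and open ones where it was not. Mmp13 is filled only in HFHFr-F (37.8) and HFHFr-FA (15.5), and Timp1 stands at 423 in HFHFr-F with the other groups between 188 and 210.

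Of the 58 genes 31 (53.4%) were well above background on at least 1 array, close to the 54.8% of all gene names. 23 were so on all 5 arrays, 8 on some and 27 on none. The genes not detected included the neutrophil enzymes Mmp8 and Mmp9, the stromelysins Mmp3 and Mmp10, urokinase (Plau), Lox, Loxl3, Loxl4, Plod2, Timp4 and the cartilage aggrecanase Adamts4. The rest of the 27 were Adamts3, Adamts6, Adamts8, Adamts10, Adamts12, Adamts13, Adamts16, Adamts18, Adamts19, Adamts20, Mmp1a, Mmp16, Mmp20, Mmp21, Mmp24 and Mmp28. Detected members numbered 31 in HFHFr-F, 30 in HFHFr-FA, 24 in Control, 25 in HFHFr-N and 27 in HFHFr-NA, so each detected member was above background in HFHFr-F.

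Among the 23 members detected on all arrays, HFHFr-F gave the highest signal for 11 and HFHFr-FA for 8. Over all 12964 gene names detected on all arrays those arrays were highest for 16.6% and 18.7%. HFHFr-N was highest for 2 members, Control for 1 and HFHFr-NA for 1. Both arrays of mice still on the diet thus held the highest value for 19 of the 23.

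The first comparison asks what 20 weeks of the diet did to these genes. In HFHFr-F livers 10 of the 31 measured members were at least 2-fold higher than in Control and 0 were lower, against 5.43% higher and 3.23% lower among all measured genes. They were 5 proteases (Mmp13, Mmp2, Mmp7, Mmp23 and Adamts2), all 3 detected TIMPs (Timp1, Timp2 and Timp3), the urokinase receptor and the crosslinking enzyme Loxl2. The median log2 ratio was 0.53 in the members and -0.08 over all genes. A gene detected on 1 of the 2 arrays alone enters with a bound and can only point one way; among the 24 members well above background on both arrays 6 were at least 2-fold higher and 0 lower, against 4.55% of all such genes.

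Mmp13, the main interstitial collagenase of rodents, had the largest ratio or bound. Its scaled signal was 1.96 ± 1.9 in Control, 3.21 ± 1.8 in HFHFr-N and 3.33 ± 1.7 in HFHFr-NA, none well above background, and 37.8 ± 4.1 in HFHFr-F and 15.5 ± 2.2 in HFHFr-FA. The gene was thus detected in both groups still on the diet and in neither of the other diet-fed groups nor in Control. It was at least 4.38-fold higher in HFHFr-F than in Control, a bound against the lowest detected signal in Control. Its single probe lies at chr9:7282762-7282821 (mm9). Mmp2, gelatinase A, gave 21.1 ± 2.7 in HFHFr-F, 15.7 ± 2.3 in HFHFr-FA, 4.81 ± 2.1 in Control, 8.83 ± 2.0 in HFHFr-N and 9.30 ± 1.9 in HFHFr-NA, at least 2.45-fold higher in HFHFr-F than in Control.

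Mmp7, matrilysin, a small MMP without the hemopexin domain of most others that is typical of duct epithelium, gave 20.5 ± 2.8 in HFHFr-F, 15.0 ± 2.3 in HFHFr-FA, 2.91 ± 2.3 in Control, 2.12 ± 2.1 in HFHFr-N and 13.6 ± 2.4 in HFHFr-NA. Both retinoic acid groups and HFHFr-F were above background and Control and HFHFr-N were not, and the bound for HFHFr-F against Control was at least 2.38-fold. Mmp12, the macrophage elastase, crossed the detection limit in HFHFr-F alone, at 9.08 ± 1.9, and its bound there was 1.05-fold. Mmp23 was well above background in every group but Control and was at least 2.27-fold higher in HFHFr-F. Of the 4 detected membrane-type MMPs 3 were under 2-fold, and Mmp25 entered with a bound of at least 1.45-fold, which leaves its ratio unknown above that. Mmp14, which activates the Mmp2 precursor at the cell surface, had 655 ± 66 in HFHFr-F, 833 ± 83 in HFHFr-FA, 560 ± 56 in Control, 440 ± 44 in HFHFr-N and 650 ± 65 in HFHFr-NA, a log2 ratio of 0.23 ± 0.20 in HFHFr-F against Control.

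Adamts2, which removes the amino-terminal propeptide of fibrillar procollagens, had 278 ± 28 in HFHFr-F, 191 ± 19 in HFHFr-FA, 95.8 ± 9.8 in Control, 111 ± 11 in HFHFr-N and 119 ± 12 in HFHFr-NA. The 2 groups on the diet stood above the other 3, and HFHFr-F was 2.90-fold above Control. Of its 3 other probes 1 was detected in HFHFr-F alone, with a bound of 0.57 on the log2 scale against Control, and the others on no array. Adamts14, with the same function, had a log2 ratio of -0.12 ± 0.23. The proteoglycan-cutting Adamts15, Adamts9 and Adamts5 lay just under 2-fold, with log2 ratios of 0.95 ± 0.26, 0.83 ± 0.34 and 0.74 ± 0.24, while Adamts1 had 0.16 ± 0.21. A second, dimmer Adamts1 probe pointed the other way. It was well above background in Control alone, at 11.7, with a bound of -0.67 on the log2 scale for HFHFr-F against Control.

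Timp1, the inducible TIMP, had a scaled signal of 423 ± 42 in HFHFr-F, 188 ± 19 in HFHFr-FA, 210 ± 21 in Control, 190 ± 19 in HFHFr-N and 197 ± 20 in HFHFr-NA. HFHFr-F alone stood apart and the other 4 groups lay within the software error of each other. The ratio of HFHFr-F to Control was 2.01, just inside the 2-fold rule, with Adamts15 just outside it. A second Timp1 probe was detected in HFHFr-F alone, with a bound of 0.43 on the log2 scale against Control. Timp2 had 796 ± 80 in HFHFr-F, 633 ± 63 in HFHFr-FA, 377 ± 38 in Control, 453 ± 45 in HFHFr-N and 459 ± 46 in HFHFr-NA, and Timp3, which stays bound to the matrix, 324 ± 32, 303 ± 30, 153 ± 15, 194 ± 19 and 279 ± 28 in the same order. Both were highest in HFHFr-F, by 2.11-fold and 2.12-fold over Control, and for both HFHFr-FA came second. Reck went the other way, with 16.3 ± 2.5 in Control and 12.1 ± 2.0 in HFHFr-F, the lowest of the 31 ratios (log2 ratio -0.43 ± 0.32).

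Plaur had 36.2 ± 4.2 in HFHFr-F, 38.8 ± 4.3 in HFHFr-FA, 13.8 ± 2.8 in Control, 12.2 ± 2.5 in HFHFr-N and 17.0 ± 2.7 in HFHFr-NA. The 2 groups still on the diet did not overlap the other 3 within the software error, and HFHFr-F was 2.63-fold above Control. Of the 8 spots around the Plaur spot 3 were also over 1 log2 unit above the other arrays on HFHFr-F, as were 2 around Timp1 and 0 or 1 around the other 8 genes, against 3.64% of all spots of that array. The part of this in the Plaur and Timp1 values was not tested. A second Plaur probe, well above background in HFHFr-F and HFHFr-FA alone, gave 12.7 and 11.9 there and 9.41 in Control, a bound of 0.43 on the log2 scale for HFHFr-F against Control. The Plaur ratio was past 2-fold in 7 of 10 alternatives at that threshold, with log2 ratios of 0.50 to 1.52 and 0.91 by the mean of its probes. Plat had a log2 ratio of 0.86 ± 0.28.

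Loxl2, a lysyl oxidase that crosslinks collagen, had 43.8 ± 4.7 in HFHFr-F, 27.4 ± 3.2 in HFHFr-FA, 18.5 ± 2.7 in Control, 18.1 ± 2.6 in HFHFr-N and 30.7 ± 3.5 in HFHFr-NA, 2.37-fold higher in HFHFr-F than in Control. The chosen Loxl2 probe had no RefSeq match. A second Loxl2 probe, which had one, was well above background in HFHFr-F alone, at 8.68. Its bound for HFHFr-F against Control was 0.01 on the log2 scale, so the 2.37-fold value rests on the chosen probe. Loxl1, needed for elastic fibres, had 17.1 ± 2.7 in Control and 19.5 ± 2.6 in HFHFr-F, and was not well above background in HFHFr-N (8.42 ± 2.0) or HFHFr-NA (6.71 ± 1.9). Tgm2 had 6030 ± 600 in HFHFr-F, 4600 ± 460 in HFHFr-FA, 3550 ± 360 in Control, 4130 ± 410 in HFHFr-N and 3830 ± 380 in HFHFr-NA. Its log2 ratio in HFHFr-F against Control was 0.76 ± 0.20, and 0.67 and 0.54 by its 2 other probes. The hydroxylases did not share this pattern: P4ha1, P4ha2, Plod1 and Plod3 had log2 ratios of 0.01, 0.27, 0.12 and 0.03.

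**Figure D2:**
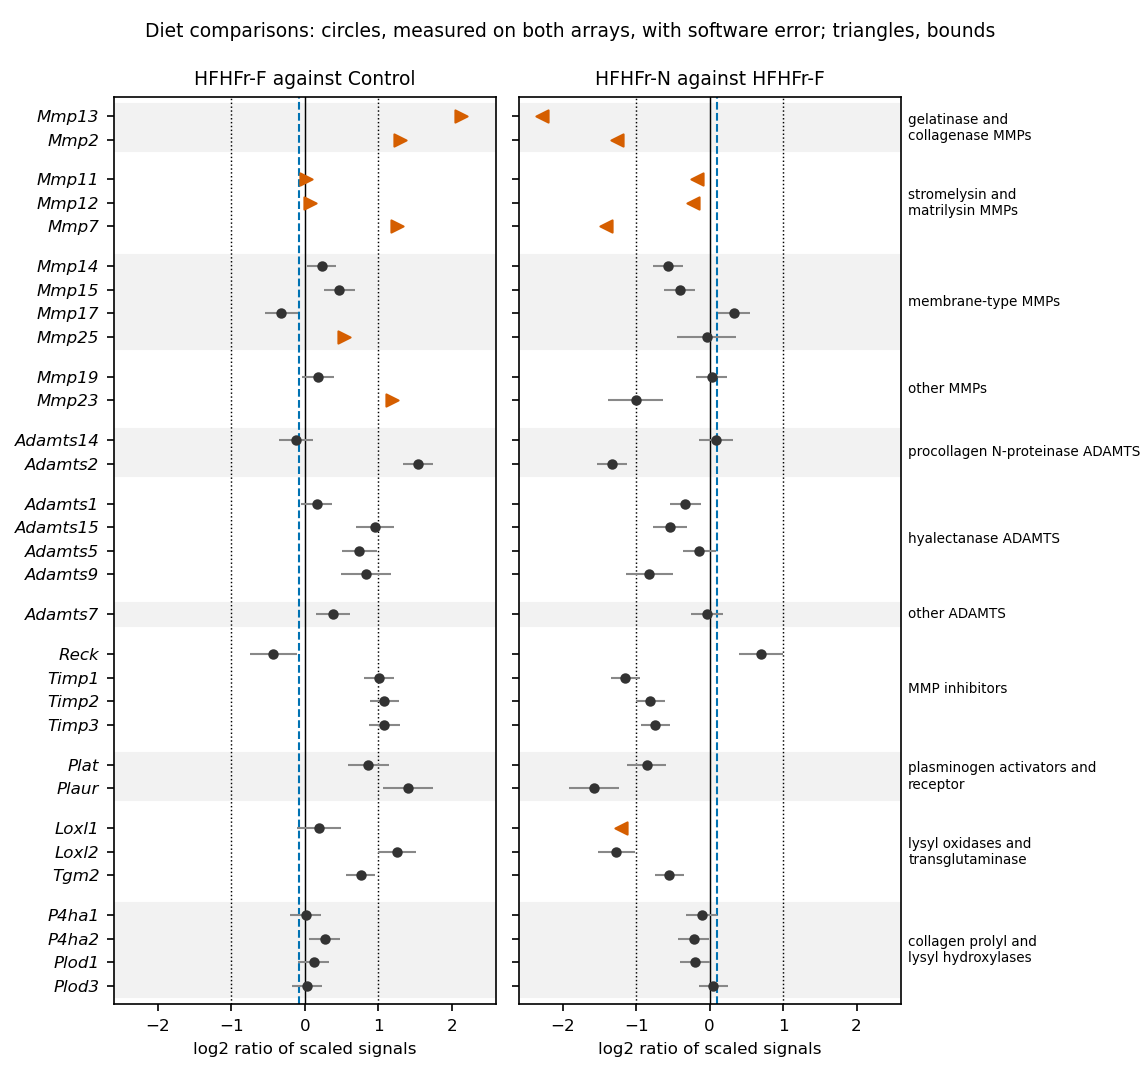
Log2 ratios of HFHFr-F to Control (left) and of HFHFr-N to HFHFr-F (right) for each measured gene, grouped by role. Circles with bars are genes well above background on both arrays with the software error of the ratio, triangles are bounds, dotted lines mark 2-fold and the dashed line marks the median of all genes (-0.08 and 0.10). Mmp13 lies outermost in both panels, at bounds of 2.13 and -2.29.

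The 10 genes depend on how background is removed. With the normexp correction in place of the software's processed signal, which pulls dim signals together, 2 remained at least 2-fold higher (Adamts2 and Timp2), and with normexp and quantile normalization 3 (Adamts2, Timp2 and Mmp13). Timp1 and Timp3 had log2 ratios of 0.95 and 0.98 with the latter. With the mean of all probes of a gene Adamts2 had 0.44.

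Genes of matrix production that are not members were set beside them. Of 13 measured collagen chains 6 were at least 2-fold higher in HFHFr-F than in Control and 0 lower, with a median log2 ratio of 0.81. Col1a1 and Col3a1, the chains of the main fibrillar collagens, had the highest ratios, 4.12 and 3.29, and Col5a3 the lowest, -0.42. Of 12 genes of collagen folding and processing 3 were higher, led by the chaperone Fkbp10 (1.71) and the procollagen C-proteinase enhancer Pcolce (1.38), with the C-proteinase Bmp1 lowest at -0.50. Of 17 matrix glycoproteins and proteoglycans 8 were higher, led by osteopontin, Spp1 (2.98), and Fbln2 (2.13), with fibronectin, Fn1, lowest at -0.25. Of 12 other matrix proteases 5 were higher, led by Adam8, at least 3.51 on the log2 scale, and Htra1 (1.41), with Mep1a lowest at -0.94. Of 11 genes of the plasminogen system 1 was higher, Anxa2 (2.25), with the clearance receptor Lrp1 next at 0.39, and 1 was lower, Serpine2 (bound of -1.64). The median over that list was -0.09, near the -0.08 of all genes.

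Some marker lists of other cell types moved with HFHFr-F. The summed scaled signal of 10 lipid-associated macrophage markers was 11500 in HFHFr-F, 3600 in HFHFr-FA, 2580 in Control, 3920 in HFHFr-N and 2700 in HFHFr-NA, with Fabp5 and Atp6v0d2 not detected on any array. Of 8 cholangiocyte markers the sum was 6260, 1190, 939, 1130 and 889 in that order, with Cftr and Muc1 not detected. Spp1 stands in both lists; without it the macrophage sums were 5480, 2600, 1810, 2910 and 1950, and the cholangiocyte sums 227, 186, 173, 122 and 142. Most of the cholangiocyte sum was thus Spp1. The 12 Kupffer cell and macrophage markers, all detected in each group, summed to 22300 in HFHFr-F, 20900 in HFHFr-FA, 11600 in Control, 14500 in HFHFr-N and 10800 in HFHFr-NA. Lyz2, Cd5l and Marco made up most of these sums. Of the 12 markers 7 were higher in HFHFr-FA than in HFHFr-F, with a median log2 ratio of 0.09, and Timd4 (-0.87) and Cd163 (-0.58) were below Control in HFHFr-F. The sum of the 12 stellate cell and fibroblast markers ranged from 11200 (Control) to 17200 (HFHFr-FA), with 13900 in HFHFr-F, and was highest in another group. Of 11 measured in HFHFr-F against Control, 2 were at least 2-fold higher (18.2%, against 5.43% of all genes) and 0 lower. Their log2 ratios were above 0 for 8 and below 0 for 3, with a median of 0.32 and Pdgfrb at 1.52. The 8 neutrophil markers on the array summed to 633, 1160, 246, 384 and 694, with Ngp and Ltf not detected. The 10 T and NK markers summed to 154, 234, 126, 125 and 137, with Cd3g, Cd4, Klrb1c and Ncr1 not detected, and the 5 mesothelial markers to 151, 67.9, 98, 117 and 84, with Wt1 not detected. The 10 endothelial markers summed to 3190, 4450, 4030, 4270 and 3640, and the 6 hepatocyte markers to 279000, 290000, 335000, 334000 and 353000. Clec4g alone was 2430 in Control and 1480 in HFHFr-F, while 7 of the 10 endothelial markers were above 0 in HFHFr-F against Control, with a median log2 ratio of 0.12. The part of these lists in the members' values was not tested.

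**Figure D3:**
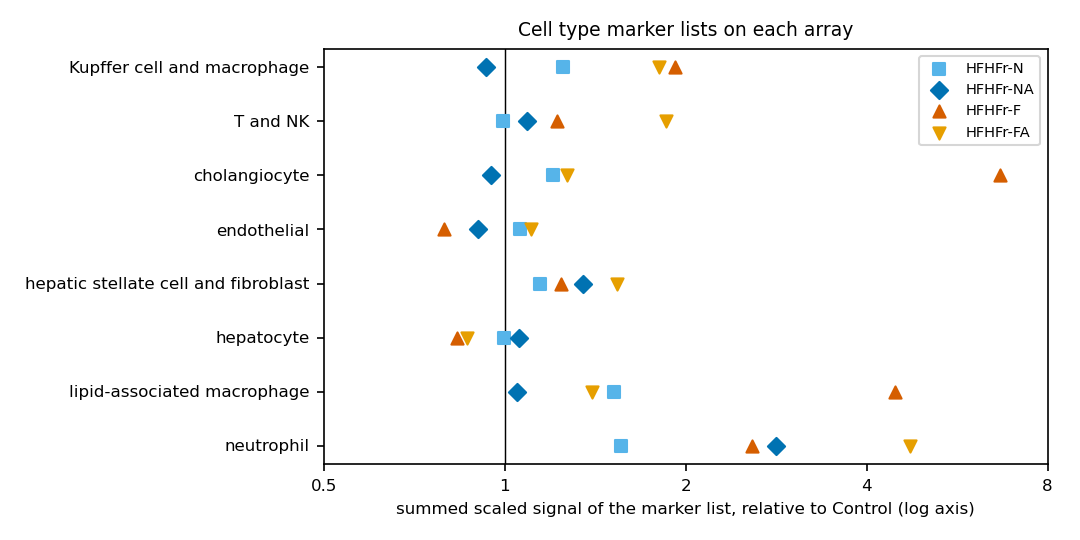
Summed scaled signal of 8 cell type marker lists in each diet-fed group relative to Control (log axis), 1 symbol per array. The lipid-associated macrophage sum was 11500 in HFHFr-F against 2580 in Control and 3600 in HFHFr-FA, and the cholangiocyte sum, which holds Spp1, 6260 against 939 and 1190.

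The second question is what remained after a return to normal diet. Against Control, HFHFr-N had 0 of 26 measured members at least 2-fold higher and 1 lower, against 1.14% and 0.825% of all genes. The 1 was Loxl1, at -1.02, a ratio to an HFHFr-N signal that was not well above background. The median log2 ratio was 0.05, and 0.02 over all genes. Set against HFHFr-F, HFHFr-N had 9 of 31 members at least 2-fold lower and 0 higher, against 3.67% and 2.13% of all genes, and a median of -0.54 against 0.10. On the 25 members well above background on both arrays 5 were lower, against 3.06% of all such genes. This comparison and that of HFHFr-F with Control share the HFHFr-F array.

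The 9 genes were Mmp13 (at least 4.89-fold lower), Plaur (2.98-fold), Mmp7 (at least 2.65-fold), Adamts2 (2.51-fold), Loxl2 (2.41-fold), Mmp2 (2.39-fold), Loxl1 (2.32-fold), Timp1 (2.23-fold) and Mmp23 (2.02-fold). Mmp2 (8.83 ± 2.0) and Loxl1 (8.42 ± 2.0) were not well above background in HFHFr-N but lay over the lowest detected signal there, 7.74. Their values are ratios to that dim signal and not limits. Timp1 was the one of the 9 still at least 2-fold lower in each of 10 alternatives at the 2-fold threshold, with log2 ratios of -1.99 to -1.05. With either normexp setting 2 of the 9, Adamts2 and Timp1, remained past 2-fold, and Loxl1 in HFHFr-N against Control had -0.21. Timp2 and Timp3 were 1.76-fold and 1.67-fold lower in HFHFr-N than in HFHFr-F. Reck was 1.63-fold higher. Among all measured genes 3.67% were at least 2-fold lower and 2.13% higher in HFHFr-N than in HFHFr-F. Of the matrix lists, 4 of 13 collagen chains, 2 of 12 folding genes, 7 of 17 glycoproteins and proteoglycans, 3 of 12 other proteases and 1 of 11 plasminogen genes were at least 2-fold lower, and 0 in any of them higher. Col1a1 had the lowest of their ratios, -3.15. The folding genes were Fkbp10 (-1.28) and Pcolce (-1.06), the proteases Adam8 (-2.39), Htra1 (-1.49) and Adam15 (-1.03), and the plasminogen gene Anxa2 (-1.64).

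The third question is what all-trans retinoic acid did while the diet went on. Of the 31 members measured 3 were at least 2-fold lower in HFHFr-FA than in HFHFr-F and 0 higher, against 2.83% lower and 2.77% higher among all genes. Mmp13 was 2.44-fold lower (log2 ratio -1.29 ± 0.26), Timp1 2.25-fold lower (-1.17 ± 0.20) and Adamts7, an ADAMTS that cuts cartilage oligomeric matrix protein, 2.01-fold lower (-1.01 ± 0.24). The 3 were measured on both arrays, where 2.47% of all genes were lower. The median of the members was -0.26, and 0.03 over all genes. The HFHFr-F array is shared with both diet comparisons above.

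Timp1 in HFHFr-FA stood at the level of Control (log2 ratio of HFHFr-FA to Control -0.16), and its ratio to HFHFr-F was past 2-fold in each of the same 10 alternatives, from -1.65 to -1.12. Mmp13 stayed well above background in HFHFr-FA, which it was not in Control. With the normexp correction Mmp13 had -0.62 and Adamts7 -0.46, and with normexp and quantile normalization -0.59 and -0.45, so that 1 member, Timp1, remained past 2-fold with each. Plaur did not differ between HFHFr-FA and HFHFr-F beyond the software error (0.10 ± 0.23), nor did Timp3 (-0.10 ± 0.20) or Mmp23 (-0.07 ± 0.27). Between these lay Loxl2 (-0.67 ± 0.23), Adamts2 (-0.54 ± 0.20), Adamts5 (-0.47 ± 0.22), Mmp7 (-0.46 ± 0.30), Mmp2 (-0.43 ± 0.28) and Timp2 (-0.33 ± 0.20). Mmp15 and Mmp19, a membrane-type and a secreted MMP that were within 1.5-fold of Control in HFHFr-F, were 1.77-fold and 1.67-fold lower in HFHFr-FA than in HFHFr-F.

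Of the 30 members measured on both arrays 11 were above 0. Reck was 1.78-fold higher in HFHFr-FA than in HFHFr-F (0.83 ± 0.30), the highest of the 31 ratios. The 4 detected hydroxylases were all above 0, P4ha1 at 0.51, Plod3 at 0.48 ± 0.20, Plod1 at 0.29 and P4ha2 at 0.22. For all 4 HFHFr-FA gave the highest signal of the 5 arrays by the chosen probe, as for Adamts1, Mmp14, Reck and Plaur. HFHFr-FA was alone on its slide, so slide and treatment cannot be told apart here. Plod3, which also adds sugars to hydroxylysine, had 289 ± 29 in HFHFr-F, 404 ± 40 in HFHFr-FA, 283 ± 28 in Control, 299 ± 30 in HFHFr-N and 283 ± 28 in HFHFr-NA. By this probe 4 groups lay together and HFHFr-FA above them. A second Plod3 probe, also well above background on all 5 arrays, gave 24.4, 30.9, 28.5, 26.8 and 24.6 in the same order. There HFHFr-FA was highest but close to Control. Tgm2 and Plat, both known to be raised by retinoic acid in several cultured cell types, were not higher here: Tgm2 had -0.39 ± 0.20, and -0.67 and -0.44 by its other probes, and Plat had -0.40 ± 0.24.

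**Figure D4:**
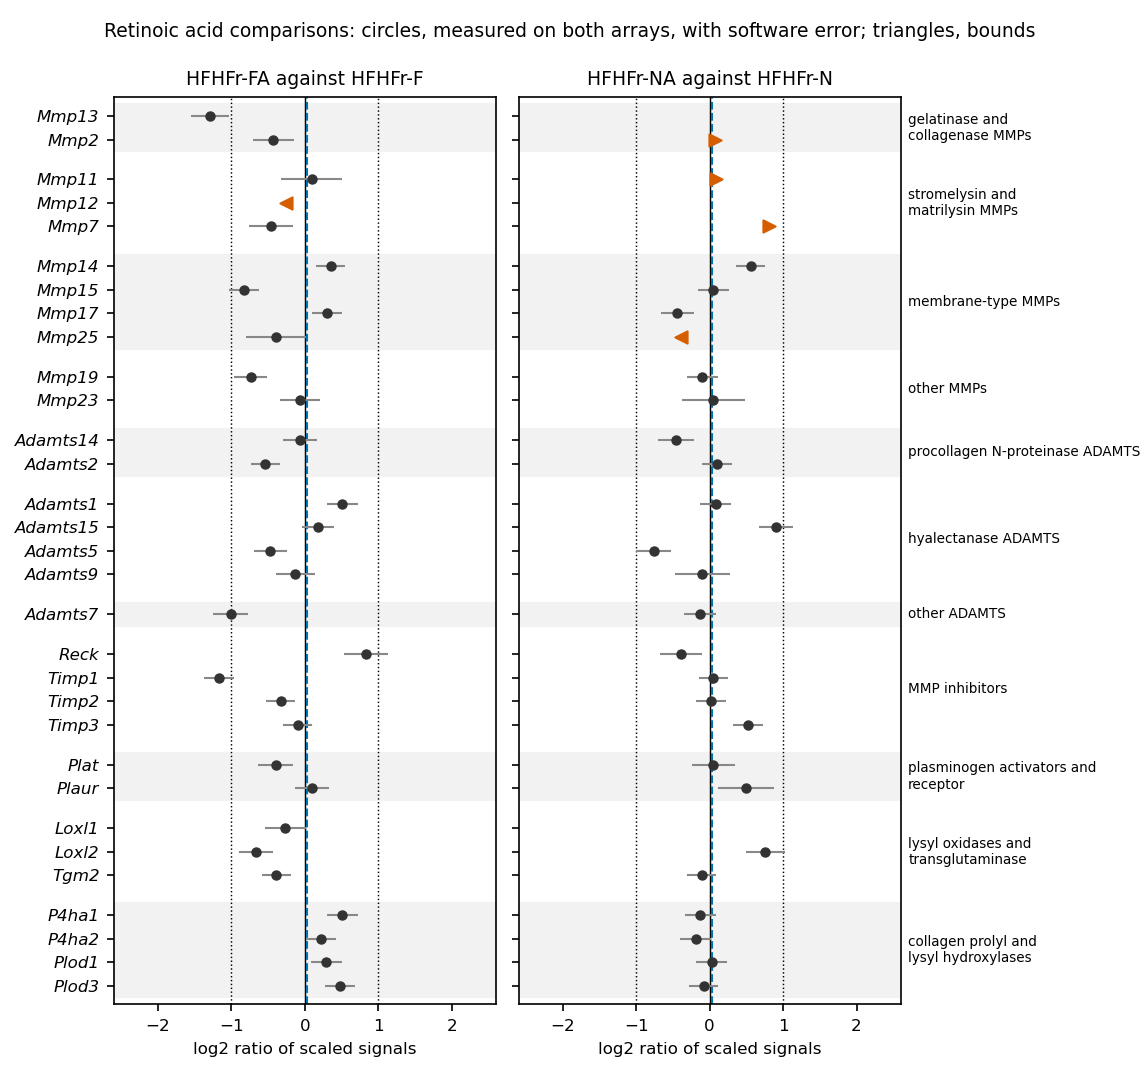
Log2 ratios of HFHFr-FA to HFHFr-F (left) and of HFHFr-NA to HFHFr-N (right) for each measured gene, drawn as in the plot of the diet comparisons. Mmp13, Timp1 and Adamts7 lie beyond 2-fold at left (-1.29, -1.17 and -1.01) and no gene does at right.

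The other matrix genes were compared in the same way between HFHFr-FA and HFHFr-F, where 2.83% of all measured genes were at least 2-fold lower and 2.77% higher. Of 13 collagen chains 2 were at least 2-fold lower, Col1a1 (-1.72) and Col3a1 (-1.71), and 0 higher. Of 18 glycoproteins and proteoglycans 4 were lower, Spp1 (-2.59), Lum (-1.38), Fbln2 (-1.20) and Mfap4 (a bound of -1.21), and 1 was higher, elastin (Eln), a bound of 1.71 since HFHFr-F did not measure it; Fn1 had 0.32. Of 12 other proteases 1 was lower, Htra1 (-1.28), while Adam8 had -0.70, and of 11 plasminogen genes 1, Anxa2 (-1.51). Of the 12 folding genes 0 were apart, with Fkbp10 at -0.84. Between these arrays the lipid-associated macrophage sum was 11500 in HFHFr-F and 3600 in HFHFr-FA, while the Kupffer cell and macrophage sum was 22300 and 20900.

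Set against Control, HFHFr-FA had 3 of 30 measured members at least 2-fold higher, Plaur (2.82-fold), Adamts15 (2.18-fold) and Mmp23 (at least 2.16-fold), and 0 lower, against 4.51% and 1.93% of all genes. HFHFr-F, compared with the same Control array, was 2.63-fold, 1.93-fold and at least 2.27-fold higher for these genes. Adamts2 (1.99-fold) and Timp3 (1.98-fold) lay just under the threshold in HFHFr-FA, and Mmp2, Mmp13 and Mmp7 had bounds of at least 1.82-fold, 1.79-fold and 1.73-fold.

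The last question is what all-trans retinoic acid did on normal diet. In HFHFr-NA against HFHFr-N 0 of the 28 measured members were shown to be at least 2-fold apart, 4 of them by bounds, against 1.51% higher and 1.33% lower among all genes. The median was 0.04, and 0.03 over all genes. The members farthest from 0 were Adamts15 (0.90 ± 0.23), Mmp7 (a bound of 0.81), Loxl2 (0.76 ± 0.26), Adamts5 (-0.76 ± 0.24), Mmp14 (0.56 ± 0.20) and Timp3 (0.52 ± 0.20). Adamts15 and Adamts5, which both cut aggrecan-type proteoglycans, thus lay on opposite sides. Adamts15 had 36.9 ± 4.0 in HFHFr-F, 41.7 ± 4.5 in HFHFr-FA, 19.1 ± 2.7 in Control, 25.3 ± 3.0 in HFHFr-N and 47.4 ± 5.0 in HFHFr-NA, and was highest in HFHFr-NA, unlike any other member detected on all arrays. Timp1 (0.05 ± 0.20), Timp2 (0.02 ± 0.20), Adamts2 (0.10 ± 0.21) and Tgm2 (-0.11 ± 0.20) lay within the software error of 0. The collagen chains, folding genes, glycoproteins and other proteases had 0 genes at least 2-fold apart, and the plasminogen list had 1 lower of 12, Anxa2 (-1.03).

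Against Control, HFHFr-NA had 1 of 28 members at least 2-fold higher, Adamts15 (1.31), and 1 lower, Loxl1 (a bound of -1.20), against 2.0% and 1.45% of all genes. HFHFr-N, compared with the same Control array, had -1.02 for Loxl1.

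**Figure D5:**
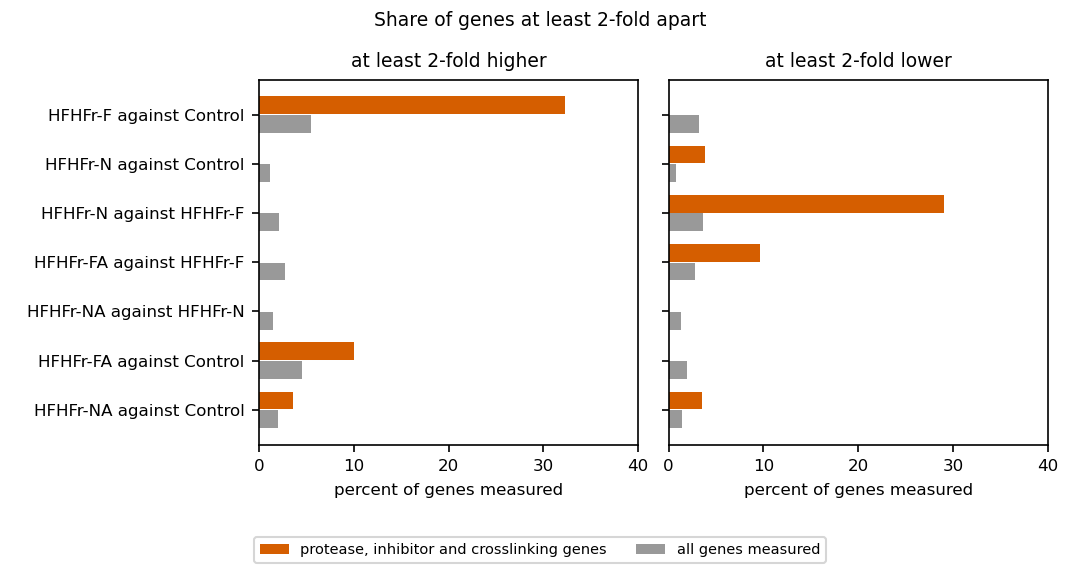
Percent of measured genes at least 2-fold higher (left) and lower (right) in each comparison, among the matrix protease, inhibitor and crosslinking genes and among all genes, with bounds counted. In HFHFr-F against Control 32.3% of these genes were higher against 5.43% of all genes, and in HFHFr-N against HFHFr-F 29.0% were lower against 3.67%.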

How the data were processed

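Liver RNA, pooled from 5 mice per group, was labelled with Cy3 and hybridised to 5 Agilent whole mouse genome arrays, per the labels. Per the file headers, the authors quantified them with Feature Extraction 10.5.1.1, and the deposited processed intensity is background-subtracted within the array. The values in the authors' deposited table turned out to be the linear ratio of processed intensity to 1 constant for each array. Their medians were 0.0675 (HFHFr-F), 0.0721 (HFHFr-FA), 0.0700 (Control), 0.0738 (HFHFr-N) and 0.0744 (HFHFr-NA). They keep the signal's scale and direction and are not centred. The constants, 165.3 (HFHFr-N) to 214.7 (HFHFr-F), lay a little below the arrays' 75th percentiles, 172.5 to 222.9, and had the same order over the arrays. How they were defined is not known. Depth does not apply to arrays: with 1 array per group their number limits the precision.

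Each array's 75th percentile of log2 processed intensity, taken without control and outlier spots, was subtracted and repeat spots of a probe were averaged. The brightest probe over the 5 arrays stood for a gene name. Of 98 member probes 81 matched a RefSeq accession (GRCm38.p6), all 81 with the same symbol; probe positions are mm9, from the files. Exon and UTR were not determined. Where other probes of a member were measured on both arrays of a comparison, 26 ratios from 7 probes were set against the chosen one and 0 lay over 1 log2 unit away or 0.5 on the other side of 0. Bounds were left out of this check, among them that of the second Adamts1 probe, which pointed the other way from the chosen probe. No ratio past 2-fold was among the 26, since those genes had no other probe measured on both arrays there. The named 2-fold differences were thus not checked by a second probe in this way. A comparison took genes well above background on either array; if dim on the other, its ratio is a bound against the higher of its own signal and the lowest detected signal there. Where its own signal is the higher, the value is the ratio to that dim signal and not a strict limit. Genes at least 2-fold apart were counted in 5 comparisons and 2 further ones with Control. With 1 array per group there was no test, so a limma fit was not made. Genes were named by a rule: members at least 2-fold apart in any of the 5, the brightest of each role, those nearest 2-fold, and of each matrix list the 2 highest and the lowest in HFHFr-F against Control. Other members, such as Reck, Plat and Mmp12, were described after their values were seen. Members, lists and rules were chosen with earlier results of these data known. Some genes of these lists are not reported here. The calculation was tested on simulated data. Promoters are from RefSeq (GRCm38.p6), and protein sequences were not used here. 12 alternatives were run. Python 3.11.15, pandas 2.3.3, numpy 2.4.6, matplotlib 3.10.9, R 4.3.3 and limma 3.58.1 (normexp with an offset of 50, quantile and cyclic loess normalization) were used.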

Additional observations from a re-analysis of the deposited data

Results flagged for a closer look

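Loxl2, Mmp7 and Reck went in opposite directions by at least 1.3-fold in the comparisons with and without retinoic acid on the 2 diets; the difference between the comparisons was not tested. Loxl2 had a log2 ratio of -0.67 in HFHFr-FA against HFHFr-F and 0.76 in HFHFr-NA against HFHFr-N. Both Loxl2 values came from its chosen probe, which had no RefSeq match. The second Loxl2 probe had a bound of -0.2 in HFHFr-FA against HFHFr-F and was not well above background on normal diet. Mmp7 had -0.46 on the continued diet and a bound of 0.81 on normal diet, where HFHFr-N was not well above background. Reck, the inhibitor, had 0.83 on the continued diet and -0.39 on normal diet.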

How the results depend on the processing

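Of 60 counts of members at least 2-fold apart, over 12 alternatives and 5 comparisons, 36 stayed within 1.5 times of the reported ones (10 in HFHFr-F against Control, 1 in HFHFr-N against Control, 9 in HFHFr-N against HFHFr-F, 3 in HFHFr-FA against HFHFr-F and 0 in HFHFr-NA against HFHFr-N). In that order, normexp with the 75th percentile gave 2, 0, 2 and 1 for the first 4, and normexp with quantile normalization 3, 0, 2 and 1. Without a detection filter the second to the fifth were 6, 16, 6 and 6. Requiring both arrays well above background gave 6, 0 and 5 for the first 3. The mean of all probes gave 2 for the second. A 1.5-fold threshold gave 2, 14, 7 and 4 for the second to the fifth, and a 3-fold one 1, 0, 1 and 0 for the first 4. Of 23 ratios past 2-fold, 3 (Timp1 in HFHFr-N and in HFHFr-FA against HFHFr-F, Timp2 in HFHFr-F against Control) stayed so in every alternative at that threshold, and 0 reversed. Over all genes, the split of higher and lower in HFHFr-F against Control, 783 and 466, became 869 and 405 with median centring, 874 and 396 with the percentile over detected probes, and 985 and 337 with cyclic loess; in HFHFr-FA against HFHFr-F, 408 and 416 became 291 and 524 with median centring and 326 and 497 with cyclic loess; in HFHFr-N against HFHFr-F, 311 and 536 became 225 and 659 with median centring and 213 and 673 with cyclic loess. There the median of all genes moved by -0.11 with both, and that of the members from -0.54 to -0.65 and -0.66. Signals near background limit Mmp13, Mmp2, Mmp7 and Mmp23 to bounds. Slide as a block could not be fitted and no replicate could be left out. No paired analysis was possible because each group is 1 array.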
